A study of Mus musculus with 8 samples.

Results

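The 35 genes examined here are transcripts by which macrophages and their states in fat are recognised. They were listed by name, with no threshold on their values, when earlier results of these data were known. A gene was read from the probe set that names only that gene and has the highest mean log2(signal + 26) over all 8 arrays. Of the 35 genes, 34 were measured, 32 were bright enough to be tested among 11662 genes, 2 (Tnf and Il6) lay below the brightness limit, and the osteopontin gene Spp1 was not named by any probe set used here. The arrays hold subcutaneous fat of male diabetic mice, 4 given placebo (water alone) and 4 given niacin-bound chromium (NBC, trivalent chromium complexed with nicotinic acid), both by gavage for 10 weeks on 5 days per week, the dose of NBC being 10 mg per kg. The labels put the mice at 8 weeks of age and do not name the strain or the cause of the diabetes. Each mouse gave 1 Affymetrix Mouse Genome array of whole tissue, so that fewer macrophages and less macrophage RNA per cell cannot be told apart.

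Macrophages are phagocytes that arise from embryonic precursors or from blood monocytes, and their growth and survival depend on the receptor encoded by Csf1r. Resident macrophages of fat carry the mannose receptor Mrc1 and the haemoglobin scavenger receptor Cd163. In obese fat, lipid-associated macrophages gather around dying adipocytes, take up their lipid, and switch on the lipid sensor Trem2 together with lysosomal and matrix-degrading genes such as Gpnmb and Mmp12. Other macrophages of obese fat release the cytokines encoded by Tnf, Il1b and Il6.

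This comparison asked whether macrophage transcripts of this depot differed after oral NBC. Nearly all tested members had a slightly higher mean in the supplemented mice, and that pattern was lost when 1 NBC mouse, number 13, was left out. The log2 difference (NBC minus placebo) was above 0 for 31 of 32 members, against 48.5% of all genes tested, with a median of 0.21 against -0.0064 over all genes. Without NBC mouse 13, 15 of the 32 members lay above 0 and the median was -0.023. Without placebo mouse 10, the lowest mouse for 19 members, 21 lay above 0 and the median was 0.039.

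No member passed the threshold of 0.05 after Benjamini-Hochberg adjustment over the 22519 probe sets fitted with limma, where 0% of all genes passed, and the smallest adjusted p of a member was 0.778. At an unadjusted p under 0.05 there was 1 member higher and 0 lower in NBC (Csf1r), while 2.73% of all genes tested were past it as higher and 2.71% as lower. The same gene was the only member whose groups did not overlap, in a background of 1.7% of genes without overlap and higher in NBC and 2.23% without overlap and lower. After quantile normalization, no member was without overlap.

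NBC mouse 13 read highest of the 8 mice for 27 of 32 members, and its signal was at least 1.5 times the median of the others for 21 of them. Taking each member's deviation from its own mean over the 8 mice on the log2 scale, the median over the members was 0.81 in NBC mouse 13. The other NBC mice stood at 0.17 (mouse 9), -0.21 (mouse 11) and -0.36 (mouse 5). Placebo mice 6, 8 and 14 lay close together at -0.027, 0.077 and 0.11, and placebo mouse 10 stood at -0.58. Mice 5 and 11 of the NBC group thus lay below 3 of the 4 placebo mice. The median SD of a member on the log2 scale was 0.35 among placebo and 0.54 among NBC mice, and 0.33 among the 3 NBC mice other than mouse 13. Osteoclasts are made from macrophage precursors and share Ctsk, Atp6v0d2 and Trem2 with the lipid-associated genes. The summed signal of their markers was also highest in mouse 13. The 5 osteoclast and bone markers measured summed to 2818 there, against 904 to 1331 in the other NBC and 1125 to 1747 in placebo mice, and the fusion gene Dcstamp read 1447 and its relative Ocstamp 725 in that mouse, the highest of the 8. The other markers were below the brightness limit. Calcr (203) was highest in mouse 13, but Oscar (174) and Ibsp (268) were not. Placebo mouse 10 read 221 for Oscar and placebo mouse 6 read 341 for Ibsp. The ratio of 3′ to 5′ Gapdh control signals, a sign of RNA quality, was raised in NBC mice 5, 11 and 13 (1.47, 1.28 and 1.115). It lay at 0.844 in NBC mouse 9 and between 0.924 and 1.04 in the placebo group. The part of osteoclasts or of RNA quality in the macrophage values was not tested.

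**Figure D1:**
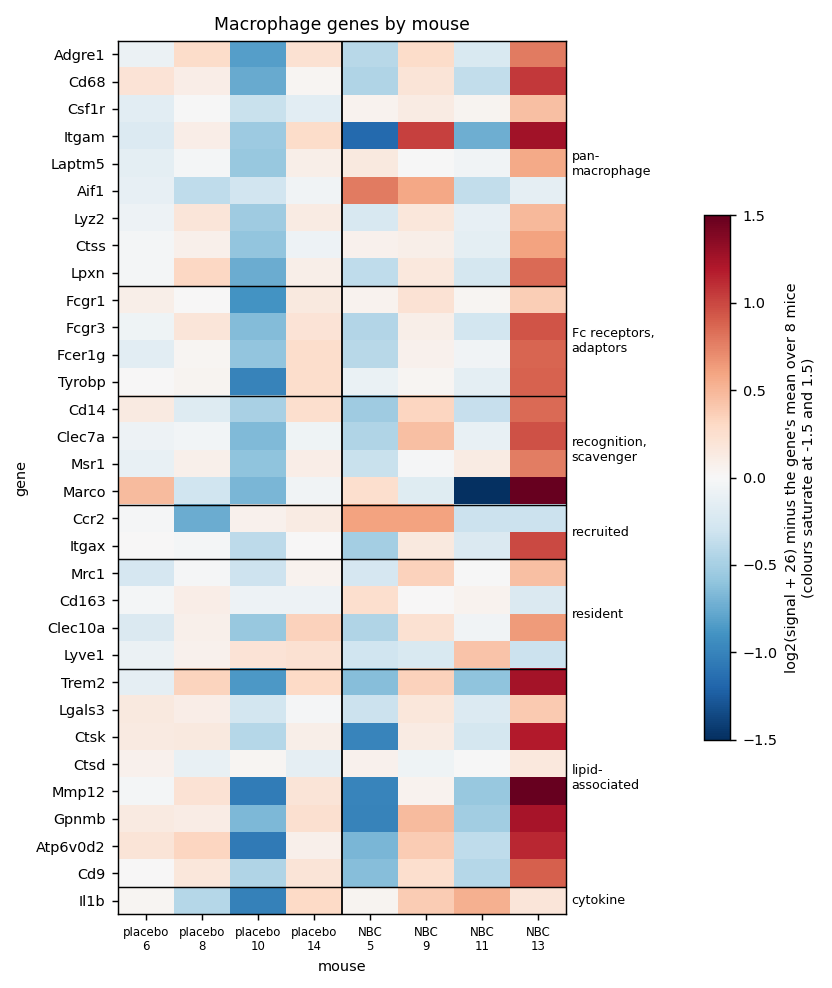
Each cell shows the log2(signal + 26) of a tested macrophage gene (row) in 1 mouse (column) minus the mean of that gene over the 8 mice, with genes grouped by role. NBC mouse 13 is the highest column for 27 of the 32 genes, the exceptions being Aif1, Ccr2, Cd163, Lyve1 and Il1b. Placebo mouse 10 is the lowest for 19 genes.

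Among the 9 genes listed as pan-macrophage, the log2 differences lay between 0.15 (Lyz2) and 0.42 (Aif1). Some of them, such as Laptm5, are shared with other white blood cells. Signals are listed from here on in the order 6, 8, 10 and 14 for placebo and 5, 9, 11 and 13 for NBC mice. The growth factor receptor gene Csf1r (probe set 1419872_at) read 34360.4, 38211, 30512 and 34513 in placebo and 39902, 41944, 39585 and 52622 in NBC mice. All 4 NBC mice lay above all 4 placebo mice, the closest being NBC mouse 11 and placebo mouse 8. The means were 34399 ± 3144 (SD, n = 4) and 43513 ± 6162 (SD, n = 4). The log2 difference was 0.33 with a standard error of 0.13 (unadjusted p = 0.0355 and adjusted p = 0.778 in limma's moderated test), and 0.24 (SE 0.12) without NBC mouse 13. Its other kept probe sets overlapped between the groups, 1419873_s_at at 0.34 (SE 0.18) and 1423593_a_at at 0.029 (SE 0.20).

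The surface receptor gene Adgre1, which encodes the F4/80 antigen, read 6798, 8738, 4040 and 8452 in placebo and 5374, 8696, 6156 and 12363 in NBC mice. The groups overlapped widely, with 2 NBC mice below 3 of the placebo mice and mouse 13 above all. Its means were 7007 ± 2155 and 8147 ± 3148 (SD, n = 4 each). The log2 difference of 0.20 (SE 0.32) was -0.024 without NBC mouse 13. The lysosomal glycoprotein gene Cd68 and the focal adhesion gene Lpxn likewise moved from 0.21 and 0.18 to -0.11 and -0.070 when that mouse was left out. For the integrin gene Itgam, which encodes CD11b and is shared with neutrophils, NBC mice spread 5.76-fold from lowest (297, mouse 5) to highest (1712, mouse 13), against 1.81-fold among placebo mice. The lysozyme gene Lyz2, the cathepsin gene Ctss and the lysosomal membrane gene Laptm5 kept differences above 0 without mouse 13, at 0.014, 0.16 and 0.19, and without placebo mouse 10, at 0.00029, 0.16 and 0.19. Laptm5 was read from a probe set of the type that can also bind other transcripts (1436905_x_at), its other kept probe sets lay between -0.44 and 0.32, and the mean of all kept ones differed by -0.025.

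Aif1, which encodes the calcium-binding protein IBA1, did not follow mouse 13. It read 926, 770.4, 824 and 972 in placebo and 1761, 1519, 776 and 916 in NBC mice. Mice 5 and 9 were high and the other NBC mice lay within the placebo range. The log2 difference was 0.42 (SE 0.25). It was 0.23 (SE 0.23) without NBC mouse 5, 0.30 without mouse 9, and 0.62 and 0.54 without mice 11 and 13. The same mice, 5 and 9, had the highest summed signal of T cell and NK cell markers (6774 and 4873, against 3083 to 4576 in placebo mice) and of lymph node stroma markers. The part of lymphoid cells in the Aif1 values was not tested.

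The Fc receptor genes Fcgr1 and Fcgr3 and the signalling adaptor genes Fcer1g and Tyrobp, which pass signals from receptors that bind antibody or lipid, had log2 differences of 0.16 to 0.34. The high-affinity receptor gene Fcgr1 (1417876_at), which had the smallest p of these, read 1137, 1067, 559 and 1180.4 in placebo and 1111, 1244, 1087 and 1383 in NBC mice. Placebo mouse 10 stood apart as low, and the other 7 mice lay within a narrow band. Its log2 difference of 0.33 (SE 0.23) was 0.089 without placebo mouse 10, and its second probe set, 1436625_at, gave -0.085 (SE 0.21). Tyrobp, which encodes the adaptor DAP12 that TREM2 signals through, read 22262, 22775, 11064 and 26525 in placebo and 20643, 22637, 20045 and 40996 in NBC mice. Here too placebo mouse 10 was the lowest and NBC mouse 13 the highest, and the difference of 0.34 (SE 0.32) was 0.10 without NBC mouse 13 and 0.066 without placebo mouse 10.

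The recognition and scavenger receptor genes Cd14, Clec7a, Msr1 and Marco bind bacterial and fungal products or modified lipoproteins. The beta-glucan receptor gene Clec7a (1420699_at) read 5033, 5123, 3342 and 5041 in placebo and 3870, 7237, 4914 and 10242 in NBC mice. NBC mice 9 and 13 lay above and NBC mice 5 and 11 below the upper 3 placebo mice. The log2 difference was 0.42 (SE 0.29), or 0.18 (SE 0.25) without NBC mouse 13. Marco, a scavenger receptor gene of a few macrophage populations, read 644, 367, 274 and 441 in placebo and 549, 401, 45.9 and 4514 in NBC mice. Only mouse 13 was high, at 11.3 times the median of the others, and mouse 11 was the lowest of all. The NBC signals thus spanned 98.3-fold, and the log2 difference of 0.28 had a standard error of 1.02 and was -0.75 without mouse 13. In a second Marco probe set, 1458297_s_at, below the brightness limit, mouse 13 was again the highest, at 1681 against 18.7 to 263 in the others. Cd14 and Msr1 differed by 0.14 (SE 0.31) and 0.27 (SE 0.25), by -0.11 and 0.056 without NBC mouse 13, and by 0.0053 and 0.11 without placebo mouse 10.

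The chemokine receptor gene Ccr2, which brings monocytes out of the blood, and the integrin gene Itgax, which encodes CD11c of inflammatory macrophages and dendritic cells, behaved differently from mouse to mouse. Ccr2 (1421186_at) read 758, 449.5, 807 and 840.3 in placebo and 1188, 1187, 612 and 612 in NBC mice. As for Aif1, mice 5 and 9 were high, while mouse 13 stood below 3 of the placebo mice, and the log2 difference was 0.29 (SE 0.29). Leaving out placebo mouse 8 gave 0.090, leaving out NBC mouse 5 or 9 gave 0.13, and leaving out NBC mouse 11 or 13 gave 0.44. Other Ccr2 probe sets above the brightness limit gave 0.29 (1421188_at) and -0.025 (1460067_at). Itgax read 4396, 4296, 3337 and 4394 in placebo and 3082, 4840.3, 3768 and 8770 in NBC mice. It was high in mouse 13 and its difference of 0.21 (SE 0.29) turned to -0.090 (SE 0.19) without that mouse.

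**Figure D2:**
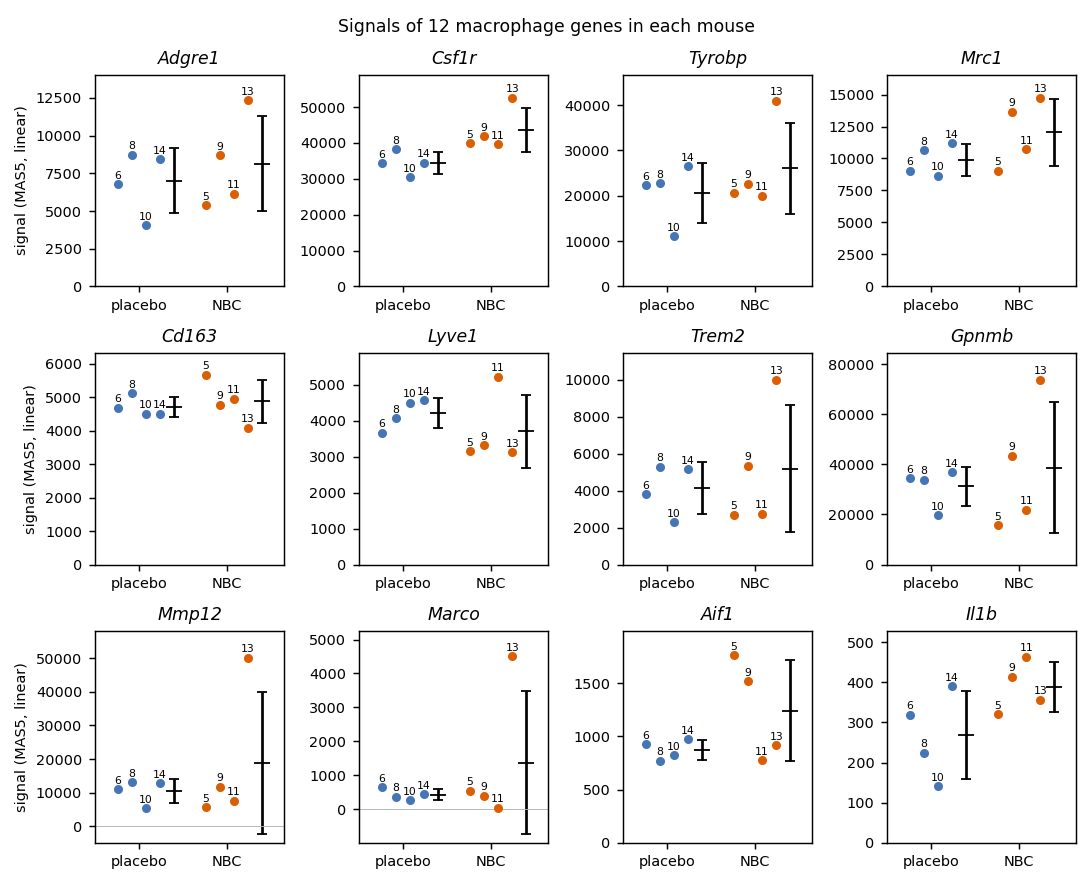
Linear signals of 12 macrophage genes in each mouse, with mouse numbers beside the points and the mean ± SD of each group (n = 4) as black bars. Mouse 13 is far above the others for Mmp12 (50216) and Marco (4514), Csf1r is the gene whose groups do not overlap, and Cd163 has its lowest value in mouse 13 (4083).

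Of the resident macrophage genes, 3 of 4 lay above 0 with a median log2 difference of 0.11. Mrc1 (1450430_at) read 9029, 10639, 8666 and 11212 in placebo and 9060, 13666, 10723 and 14755 in NBC mice. NBC mice 9 and 13 lay above every placebo mouse, and mice 5 and 11 within the placebo range. Its means were 9886 ± 1231 and 12051 ± 2622 (SD, n = 4 each), and the log2 difference was 0.27 (SE 0.18), or 0.16 (SE 0.18) without mouse 13. Cd163 (1419144_at) read 4677, 5119, 4499.5 and 4502 in placebo and 5669, 4778, 4947 and 4083 in NBC mice. Mouse 13, the highest for most members, was here the lowest of the 8. Its log2 difference was 0.043 (SE 0.13), with means of 4699 ± 292 and 4869 ± 652 (SD, n = 4 each). The C-type lectin gene Clec10a, which binds galactose-type sugars, differed by 0.18 (SE 0.26), and by 0.00028 without mouse 13.

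Lyve1, a hyaluronan receptor gene of a perivascular macrophage subset and also of lymphatic endothelium, was the only tested member with a lower mean in NBC. It read 3673, 4078, 4502 and 4576 in placebo and 3154, 3321, 5233 and 3120.2 in NBC mice. NBC mice 5, 9 and 13 lay below all 4 placebo mice, and mouse 11 lay above them all. The log2 difference was -0.21 (SE 0.18). Without NBC mouse 11 it was -0.39 (SE 0.13, adjusted p = 0.857 in limma's moderated test). The groups then did not overlap, which follows from leaving out the only NBC mouse above the placebo range. A second probe set, 1453128_at, gave -0.35 (SE 0.14, unadjusted p = 0.0321 in limma's moderated test) with overlap, NBC mouse 11 reading 3730.1 and the other NBC mice 2654 to 2826, against 3422 to 4046 in placebo mice.

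The lipid-associated genes followed the same few mice. All 8 tested ones had a difference above 0 with all mice, at a median of 0.083, although Lgals3 lay at -0.027 after quantile normalization and Gpnmb at -0.0046 with its probe sets averaged. Without NBC mouse 13, 1 of the 8 lay above 0 and the median was -0.23. Without placebo mouse 10, 2 of 8 lay above 0. Over these genes the median deviation from the mean over mice was 1.16 in NBC mouse 13 and -0.66 in NBC mouse 5, the highest and lowest of the 8 mice.

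Trem2 (1421792_s_at) read 3803, 5289, 2298 and 5164 in placebo and 2688, 5336, 2751 and 10003 in NBC mice. Mouse 13 was at 2.63 times the median of the others, mouse 9 was level with the upper placebo mice, and mice 5 and 11 lay below 3 of the 4 placebo mice. The means were 4139 ± 1399 and 5194 ± 3435 (SD, n = 4 each), and the log2 difference was 0.18 (SE 0.44), or -0.21 (SE 0.35) without NBC mouse 13. Gpnmb (1448303_at), which encodes a glycoprotein of lysosomes and melanosomes, read 34538, 33927, 19682 and 36931 in placebo and 15646, 43419, 21865 and 73791 in NBC mice. The order of the NBC mice was that of Trem2, save that mouse 5 lay below all placebo mice. Its log2 difference was 0.091 (SE 0.45), or -0.31 (SE 0.36) without NBC mouse 13, and a dimmer probe set, 1439345_at, gave -0.10 (SE 0.48).

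Mmp12, the elastase of macrophages, was described in full after its values were seen because its NBC signals spread furthest in this role, 8.86-fold. It read 11040.1, 13114, 5410.5 and 12888 in placebo and 5666, 11712, 7606 and 50216 in NBC mice. Mouse 13 lay above all other mice, and the remaining NBC mice lay within the placebo range. The log2 difference was 0.33 (SE 0.63), or -0.33 (SE 0.36) without mouse 13. The collagen-degrading cathepsin gene Ctsk moved from 0.030 to -0.36 on leaving that mouse out, the proton pump subunit gene Atp6v0d2 from 0.23 to -0.11, and the tetraspanin gene Cd9 from 0.041 to -0.25. The lectin gene Lgals3 differed by 0.017 (SE 0.18). Ctsd (1448118_a_at), the aspartic protease of lysosomes in all cells and the gene with the smallest p in this role, read 55062, 48911, 53771 and 47806 in placebo and 54858, 50515, 52270 and 58697 in NBC mice. Its signals spanned only 1.15-fold and 1.16-fold within the groups, and it differed by 0.074 (SE 0.11).

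Sequences upstream of the start sites of genes that were high together in mouse 13 are shown beside that of Cd163, which was not. They are 250 bases before the RefSeq start in build GRCm38.p6, plus strand, 5′ to 3′: chr9:7344147-7344396 for Mmp12, chr17:48346151-48346400 for Trem2, chr6:49036268-49036517 for Gpnmb, chr3:95498960-95499209 for Ctsk and chr6:124304401-124304650 for Cd163. Capitals mark GAGGAA or its other strand TTCCTC, the core bound by PU.1, the ETS factor of the macrophage lineage, and TGANTCA. The latter is a looser form of the AP-1 site, TGAGTCA or TGACTCA, and takes any middle base. The stretch marked for it, TGAATCA in Trem2, is not the AP-1 site itself.
Mmp12: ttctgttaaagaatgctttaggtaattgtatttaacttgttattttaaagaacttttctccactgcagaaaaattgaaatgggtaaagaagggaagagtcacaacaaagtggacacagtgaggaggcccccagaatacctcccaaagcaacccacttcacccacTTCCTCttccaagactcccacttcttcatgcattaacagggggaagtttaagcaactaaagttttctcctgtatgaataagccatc
Trem2: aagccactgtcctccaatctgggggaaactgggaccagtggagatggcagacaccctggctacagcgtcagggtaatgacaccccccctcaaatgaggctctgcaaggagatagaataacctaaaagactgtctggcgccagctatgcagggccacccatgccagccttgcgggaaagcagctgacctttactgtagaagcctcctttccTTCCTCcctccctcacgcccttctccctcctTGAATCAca
Gpnmb: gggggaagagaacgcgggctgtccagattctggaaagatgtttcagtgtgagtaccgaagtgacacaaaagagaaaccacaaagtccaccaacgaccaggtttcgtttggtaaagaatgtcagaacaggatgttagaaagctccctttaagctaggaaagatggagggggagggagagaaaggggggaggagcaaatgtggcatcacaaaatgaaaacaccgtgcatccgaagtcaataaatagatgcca
Ctsk: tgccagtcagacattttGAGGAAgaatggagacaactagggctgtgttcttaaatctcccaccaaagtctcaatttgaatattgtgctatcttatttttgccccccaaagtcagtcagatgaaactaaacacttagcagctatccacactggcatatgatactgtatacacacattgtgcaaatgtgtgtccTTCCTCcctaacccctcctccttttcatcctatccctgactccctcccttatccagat
Cd163: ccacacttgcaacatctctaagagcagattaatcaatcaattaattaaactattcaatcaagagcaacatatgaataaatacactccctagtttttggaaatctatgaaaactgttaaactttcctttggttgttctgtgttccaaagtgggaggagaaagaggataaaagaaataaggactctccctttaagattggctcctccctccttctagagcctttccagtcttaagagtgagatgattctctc
The Mmp12 and Trem2 windows each held 1 match to GAGGAA and the Ctsk window held 2, while those of Gpnmb and Cd163 held 0. Of the 27 members matched in the RefSeq promoter table, 15 had GAGGAA on either strand in such a window of any of their starts (55.6%), compared with 25.9% of the 27025 genes in the table. For TGANTCA the counts were 5 of 27 (18.5%) against 7.82%, and for CACGTG, the palindromic E-box of the lysosomal regulators MITF and TFEB, 1 of 27 (3.70%, Ctsd) against 6.86%. The 2 motifs marked share no letters in the windows printed. A match of letters is a description of the window and not a bound site.

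**Figure D3:**
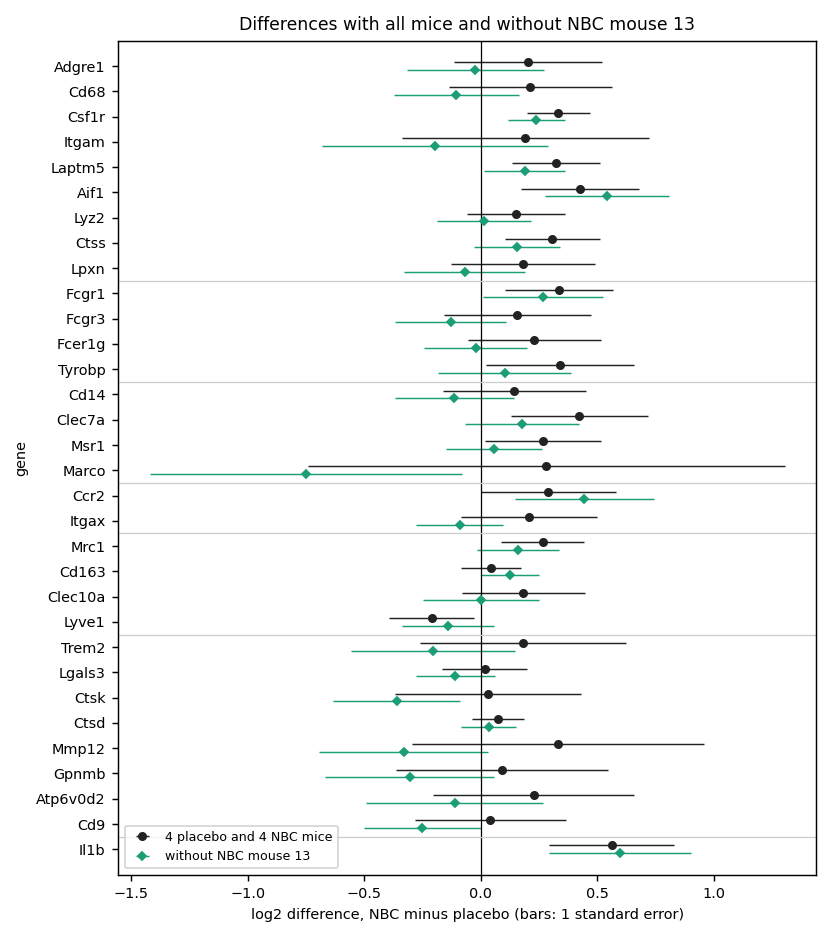
Log2 differences (NBC minus placebo, horizontal axis) of the 32 tested macrophage genes with 1 standard error, from all 8 mice (black circles) and without NBC mouse 13 (green diamonds), grouped by role as in the heat map. With all mice 31 of 32 genes lie above 0, and without mouse 13, 15 do, among them Csf1r, Aif1, Ccr2, Cd163 and Il1b.

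The cytokine genes were dim in this tissue. Il1b (1449399_a_at) read 319, 225, 141 and 390 in placebo and 321, 414, 464 and 357 in NBC mice. Placebo mice 6, 8 and 10 lay below all NBC mice, mouse 6 narrowly (319.3 against 321.2 in NBC mouse 5), and placebo mouse 14 lay among them, with means of 269 ± 109 and 389 ± 63.0 (SD, n = 4 each). The log2 difference was 0.56 (SE 0.27, unadjusted p = 0.0659 in limma's moderated test), the largest of the 32 members, and it was 0.60 (SE 0.31) without NBC mouse 13 and 0.32 without placebo mouse 10. Tnf read 43.3, 420.5, 365 and 61.7 in placebo and 126, 73.7, 70.3 and 187 in NBC mice, below the limit of 275 in mean level, and was not tested. Its placebo signals fell into a high and a low pair, and the NBC signals lay between them. Il6 read 80.4, 21.4, 86.7 and 36.8 in placebo and 70.6, 79.2, 12.7 and 88.7 in NBC mice, also below the limit, and no order of the groups could be read.

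Further macrophage genes that are not among the 35 were read from lists of the same cells. Of 22 tested genes listed as pan-macrophage, 21 lay above 0 with a median log2 difference of 0.29, and NBC mouse 13 was the highest of the 8 mice for 17 of them. Some genes of this list are shared with other white blood cells, so the count is not one of macrophages alone. At an unadjusted p under 0.05 there were 3 of 22 higher and 0 lower (2.73% of all genes tested were past it as higher), and 0 passed the adjusted threshold. They were the inhibitory Fc receptor gene Fcgr2b (0.36, SE 0.12), the complement subunit gene C1qa (0.31, SE 0.13) and the transcription factor gene Irf8 (0.30, SE 0.13). Irf8 read highest in NBC mice 9 and 5 (5425 and 5361), the mice with the highest T cell and NK cell sums. The part of lymphoid cells in these values was not tested. The groups of Fcgr2b and Irf8 did not overlap (1.7% of all genes were without overlap and higher), and without mouse 13 these 3 genes differed by 0.32, 0.26 and 0.37. Without NBC mouse 9 they differed by 0.30, 0.38 and 0.24. Without NBC mouse 13, 16 of the 22 lay above 0, at a median of 0.13, and without placebo mouse 10, 18 did, at a median of 0.10.

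The list of other resident macrophage genes held 11 tested genes, all above 0, at a median of 0.25, and 10 of 11 above 0 at a median of 0.33 without NBC mouse 13. That mouse was the highest for 4 of the 11. Some of these genes are also expressed by other cells of fat, whose part in the values was not tested. The 2 listed genes below the brightness limit, Timd4 and Mgl2, were not tested and went the other way, at -0.45 and -0.16. The transglutaminase gene F13a1, a marker of perivascular resident macrophages, read 12946, 14589, 13754 and 14190.3 in placebo and 19987, 16005, 20638 and 17409 in NBC mice. All NBC mice lay above all placebo mice, and mice 5 and 11, low for most of the 35 genes, were the highest. Mice 5 and 11 were also those with the highest Gapdh ratios and the highest summed signal of fast skeletal muscle markers (126929 and 130375). Mouse 9, the lowest NBC mouse for F13a1, had the lowest muscle sum of the NBC group (14468). The part of muscle or of RNA quality in these values was not tested. The log2 difference of F13a1 was 0.41 (SE 0.12, unadjusted p = 0.00840 and adjusted p = 0.730 in limma's moderated test). The lectin gene Cd209f differed by 0.41 (SE 0.17), also without overlap, or 0.25 without NBC mouse 5, and the scavenger receptor gene Stab1 by 0.37 (SE 0.16) with overlap. Stab1 read 2366 in NBC mouse 9, within the placebo range. Without that mouse F13a1, Cd209f and Stab1 differed by 0.48, 0.53 and 0.50, their largest values with 1 mouse left out. These 3 of 11 genes were past an unadjusted p of 0.05 as higher and 0 as lower, beside 2.73% of all genes as higher and 2.71% as lower, the 2 of 11 without overlap stood beside 1.7%, and 0 passed the adjusted threshold.

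Other lipid-associated and lysosomal genes lay above 0 in 17 of 24 cases at a median of 0.096, and in 12 of 24 at a median of 0.0065 without NBC mouse 13, with a median of 0.047 without placebo mouse 10. The hexosaminidase subunit gene Hexa was the only one with an unadjusted p under 0.05 (0.42, SE 0.16), followed by the progranulin gene Grn (0.22, SE 0.12) and the lysosomal membrane gene Lamp2 (0.24, SE 0.14). Hexa was thus 1 of 24, beside 2.73% of all genes tested that were past that p as higher. Its difference was largest, at 0.53, without NBC mouse 9. Among 18 tested ligands, receptors and signal proteins of the members, 14 lay above 0 at a median of 0.14, and 10 at a median of 0.0056 without mouse 13, or 11 at 0.021 without placebo mouse 10. The adaptor gene of Toll-like and interleukin-1 receptors, Myd88, differed by 0.33 (SE 0.12) without overlap, the decoy receptor gene Il1r2 by 0.62 (SE 0.26), or 0.42 without placebo mouse 10, and the integrin gene Itgav by 0.34 (SE 0.17). Of the 18, 2 were past an unadjusted p of 0.05 as higher and 0 as lower, beside 2.73% and 2.71% of all genes. The 1 of 18 without overlap and higher stood beside 1.7%. Csf1 and Il34, which encode the ligands of the Csf1r receptor, differed by 0.012 (SE 0.13) and 0.0070 (SE 0.12), and lay on either side of 0 with 1 mouse left out. No gene of either list passed the adjusted threshold.

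Markers of other cells moved with some of these mice. The summed signal of 8 mast cell markers was 24486 in NBC mouse 13, against 8642 to 10826 in the other NBC and 7612 to 9366 in placebo mice. Of these markers, Kit (847) and Hdc (424) were not highest in that mouse. Placebo mouse 10 read 1151 for Kit and NBC mouse 5 read 660 for Hdc. T cell and NK cell markers summed to 1159 in mouse 13 and 1855 in NBC mouse 11, below the placebo range, and to 4873 and 6774 in NBC mice 9 and 5, above it. Lymph node stroma markers ran the same way, at 1137 and 736 against 5839.8 and 5640, with 2787 to 4516 in placebo mice. Fibroblast markers summed to 220488 to 253440 in placebo and 262985 to 301472 in NBC mice, without overlap. B cell markers ran the way of the T cell and NK cell markers once the immunoglobulin gene Ighm, 92.6% of their sum, was set aside. The others summed to 1504 and 852 in NBC mice 13 and 11, below the placebo range of 4260.2 to 5341, and to 6207 and 7935 in NBC mice 9 and 5, above it, and the B cell receptor gene Cd79b read 32.1 and 186 in mice 13 and 11 against 778 to 1430 in placebo mice. Neutrophil markers other than S100a8 were lowest in NBC mouse 11 (1580.1), followed by mouse 13 (4244). The sums for adipocytes, dendritic cells, endothelium and skin epithelium overlapped between the groups. Fast skeletal muscle markers reached 110953 to 130375 in NBC mice 5, 11 and 13 and 14468 in mouse 9, against 3903 to 18837 in placebo mice. No marker was at 0 in any mouse, and the part of these cells in the macrophage values was not tested.

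**Figure D4:**
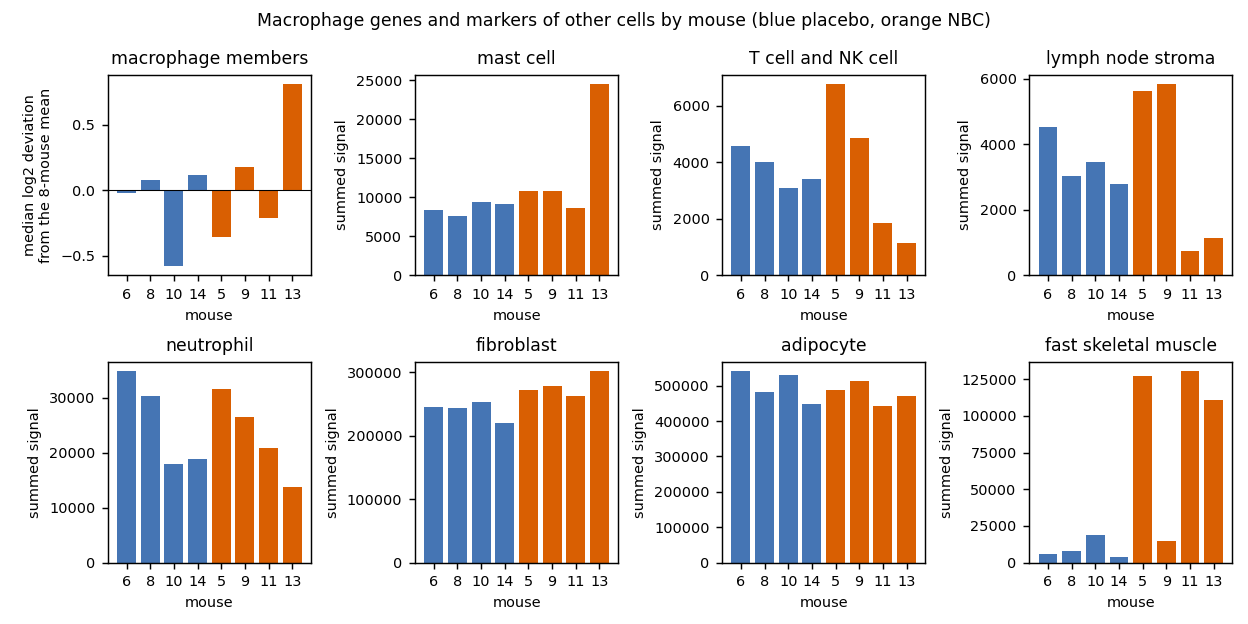
Bars show, for each mouse (blue placebo, orange NBC), the median log2 deviation of the 32 macrophage genes and the summed linear signal of marker genes of other cells, each sum over its own list. NBC mouse 13 has the highest macrophage (0.81) and mast cell values, and NBC mice 11 and 13 have the lowest T cell and lymph node stroma values.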

How the data were processed

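RNA of whole subcutaneous fat from 8 mice was analysed from the deposited linear signal intensities, 1 per probe set and array, which the authors made with MAS5 according to the submitters' processing notes (no version given). Trimmed means were 1500.01 on all arrays, so no scaling was added. Values were used as log2(signal + 26), which understates the change of dim genes. No batch is given in the sources used here. Genes were named from the platform annotation. Of 45101 probe sets, 64 controls were left out, and 22519 with a mean log2 value at or above the median (a signal of 275) were fitted with limma 3.58.1 in R 4.3.3 (lmFit, eBayes, no covariate) and Benjamini-Hochberg adjusted. Standard errors are moderated, and SDs are of linear signals. In simulated arrays with the means and spreads of these data, the fit called 48% of 2-fold and 87% of 4-fold changes at the adjusted threshold. It made 7 false calls, and 0 calls when nothing was changed. The largest log2 difference of a tested member was 0.56, less than 2-fold, so changes of that size could be missed. The number of arrays limits the precision.

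Members, roles and lists were chosen with earlier results of these data known, so lists are given as counts and medians. Full values were given for Mrc1, Cd163, Trem2, Gpnmb, the cytokines, Adgre1, Csf1r, members without overlap or with an unadjusted p under 0.05, and the smallest p of each role, and up to 3 genes per further list were named. Aif1, Lyve1, Tyrobp, Itgax, Marco, Mmp12, Csf1 and Il34 were added after their values were seen. Marker sums without the brightest marker were added after seeing the data. Pseudocounts, filters, scalings, probe set averaging, a trended fit and leaving out each mouse were tried.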

Additional observations from a re-analysis of the deposited data

Results flagged for a closer look

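Within the groups of 4 mice, 7 values of 64 groups examined (32 genes in 2 groups) stood apart from the other 3 by more than Dixon's critical value for the gap within a group's range, which chance passes in about 5% of groups. They are values of single mice and share the same few animals. NBC mouse 13 stood apart as high for Tyrobp (40996, next 22637), Marco (4514, next 549) and Mmp12 (50216, next 11712). Placebo mouse 10 stood apart as low for Clec7a (3342, next 5033), Itgax (3337, next 4296) and Ctsk (15387.5, next 21990.4). NBC mouse 11 stood apart as high for Lyve1 (5233, next 3321).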

How the results depend on the processing

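No paired analysis was possible because the labels give no mouse number to both groups. No member passed the adjusted threshold under any alternative run. Over all probe sets, 0 passed except without NBC mouse 9, where 18 did, so that leaving out 1 mouse gave 0 to 18. The count of members above 0 was 25 of 26 with the stricter filter, 32 of 34 with none and 29 to 31 of 32 under other pseudocounts, scalings and averaging, and ranged from 15 (without NBC mouse 13) to 31 with 1 mouse left out. The median of the members then ranged from -0.023 (without NBC mouse 13) to 0.37 (without NBC mouse 5). The count of members without overlap was 0 under quantile normalization and with the mean of all kept probe sets, and 1 to 2 with 1 mouse left out. Single members kept their direction in all but 3 of 250 values under other settings: Gpnmb (-0.0046) and Laptm5 (-0.025) with averaged probe sets, and Lgals3 (-0.027) under quantile normalization. With 1 mouse left out, 32 of 256 values turned sign, in 17 members, 16 of these values without NBC mouse 13 and 10 without placebo mouse 10. Their ranges with 1 mouse left out were Adgre1 -0.041 to 0.38, Atp6v0d2 -0.11 to 0.49, Cd14 -0.11 to 0.35, Cd163 -0.033 to 0.12, Cd68 -0.11 to 0.40, Cd9 -0.25 to 0.26, Ctsk -0.36 to 0.37, Fcer1g -0.023 to 0.41, Fcgr3 -0.13 to 0.33, Gpnmb -0.31 to 0.44, Itgam -0.20 to 0.61, Itgax -0.090 to 0.41, Lgals3 -0.11 to 0.13, Lpxn -0.070 to 0.34, Marco -0.75 to 1.24, Mmp12 -0.33 to 0.72 and Trem2 -0.21 to 0.42. Examples among the other members were Tyrobp 0.066 to 0.49, Msr1 0.056 to 0.42, Ccr2 0.090 to 0.44, Aif1 0.23 to 0.62, Clec7a 0.18 to 0.64, Il1b 0.32 to 0.75 and Lyve1 -0.39 to -0.14. In all, the difference of 31 of 32 members moved by over 1.5 times or turned with some mouse left out, the exception being Csf1r (0.24 to 0.39). The cause of these changes was not tested.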
